A study of Homo sapiens with 12 samples.

Results

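A set of 8 transcription factors that set intestinal epithelial identity was examined by RNA-seq in HT-29, a human colorectal cancer cell line labelled APC mutant, over 12 libraries. The genes were CDX1, CDX2, HNF4A, HNF4G, KLF4, KLF5, GATA6 and ELF3, chosen by symbol, and all 8 were present among the 25528 rows of the deposited expression table. The values are TPM, transcripts scaled to a fixed sum per library, which are corrected for transcript length and can be compared between genes. In the first arm, cells were infected with lentivirus carrying an open reading frame for GFP (the control) or for CTNNB1, which encodes beta-catenin, and were collected at day 2. In the second arm, lentivirus carried a doxycycline-induced short hairpin RNA, namely shNT1 as control or shAPC, which targets APC, and doxycycline at 2 µM was given until collection at day 1. There were 3 libraries in each of the 4 groups, numbered 1 to 3, and the labels do not say whether these came from separate cultures, so p-values measure the spread between these libraries only. APC is the scaffold of the complex that marks beta-catenin for degradation, and both perturbations act on WNT signalling in a line whose APC is already mutant.

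In the gut the homeobox factors CDX1 and CDX2 specify intestinal over gastric fate, and CDX1 is a textbook target of WNT signalling. The nuclear receptors HNF4A and HNF4G drive enterocyte genes together with the CDX factors, and GATA6 is a zinc finger factor that supports crypt proliferation. KLF5 is the Krüppel-like factor of proliferating crypt cells and KLF4 that of differentiated cells, where it restrains the cell cycle. ELF3 is an epithelium-restricted ETS factor of surface and differentiating cells.

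Sequences upstream of the starts are shown for KLF4 and KLF5, the members that were lower with shAPC by the most, and for CDX2, whose transcript was scarce. They are the 250 bases before the annotated start, 5′ to 3′ on the gene's strand, from RefSeq (GRCh38.p14), the assembly that the submitters' notes call hg38. Capitals mark the GC box GGGCGG, bound by SP and KLF factors, on either strand in the KLF genes, and the core CTTTGA of TCF and LEF sites on either strand in CDX2. KLF4 has 1 listed start, with the stretch at chr9:107489770-107490019 on the minus strand. KLF5 has 2 listed starts on the plus strand, with stretches at chr13:73054726-73054975 and chr13:73058755-73059004. That of CDX2 is chr13:27969316-27969565 on the minus strand.
KLF4: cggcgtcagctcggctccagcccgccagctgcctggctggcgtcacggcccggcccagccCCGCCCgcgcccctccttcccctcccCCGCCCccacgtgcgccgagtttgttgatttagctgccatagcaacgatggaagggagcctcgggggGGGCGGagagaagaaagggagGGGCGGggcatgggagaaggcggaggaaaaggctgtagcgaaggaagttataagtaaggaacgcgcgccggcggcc
KLF5, the first start: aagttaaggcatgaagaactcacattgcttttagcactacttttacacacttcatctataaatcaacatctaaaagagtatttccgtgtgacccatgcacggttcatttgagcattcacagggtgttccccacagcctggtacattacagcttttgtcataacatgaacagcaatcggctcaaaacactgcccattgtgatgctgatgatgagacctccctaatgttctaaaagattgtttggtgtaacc
KLF5, the second start: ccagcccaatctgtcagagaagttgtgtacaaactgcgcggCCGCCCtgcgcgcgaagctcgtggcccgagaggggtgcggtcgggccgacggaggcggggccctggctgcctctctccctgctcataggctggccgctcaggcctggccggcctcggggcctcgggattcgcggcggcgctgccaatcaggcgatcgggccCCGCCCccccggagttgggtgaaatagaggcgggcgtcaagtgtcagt
CDX2: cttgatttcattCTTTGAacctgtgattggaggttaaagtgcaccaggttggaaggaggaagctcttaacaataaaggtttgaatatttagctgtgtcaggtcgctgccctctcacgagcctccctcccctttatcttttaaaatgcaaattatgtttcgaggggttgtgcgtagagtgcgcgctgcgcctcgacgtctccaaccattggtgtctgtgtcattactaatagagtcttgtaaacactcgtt
The KLF4 stretch held 4 GC boxes, the second KLF5 stretch held 2 and the first held 0, while 42.6% of 35116 windows of this length held at least 1. The core CTTTGA was found once, in CDX2, among 8 windows of the 6 members searched (HNF4A and KLF5 have 2 windows each), and 11.2% of all windows held it. No window of CDX1 or HNF4G was searched. The CACCC box, a shorter KLF motif also searched on both strands, was found in neither KLF4 nor CDX2, once in the first and 2 times in the second KLF5 window. It was found in 54.7% of all windows. These matches describe letters only, and TPM per gene does not separate the 2 starts of KLF5 or of HNF4A.

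The 12 libraries each summed to 1e+06 TPM, which keeps no sequencing depth, and between 14756 and 16186 genes per library were above 0. The APC transcript fell from a mean of 16.4 TPM (shNT1) to 5.99 TPM (shAPC). For CTNNB1 the means were 146 TPM (GFP) and 160 TPM (CTNNB1), a log2 fold change of 0.13 that limma did not call (adjusted p = 0.059). A list of 8 WNT feedback and stem cell genes served as a readout of the pathway. AXIN2, LGR5, ZNRF3, SP5 and ASCL2 rose in both arms, with AXIN2 higher by 1.04 and 1.59 on the log2 scale, and RNF43 rose with shAPC (0.43, limma adjusted p = 0.0016) and was at 0.10 with CTNNB1 (limma adjusted p = 0.20). NKD1 (0.0443 to 4.34 TPM with CTNNB1 and 0.12 to 6.48 TPM with shAPC) and NOTUM (0.0974 to 1.99 TPM and 0.133 to 3.54 TPM) passed the filter on low values only through the perturbed group, so their values are a description. The epithelial label was checked with EPCAM, CDH1, KRT8, KRT18, KRT19, KRT20, VIL1, PHGR1 and LGALS4, whose summed level lay between 9238 and 12924 TPM in all libraries. That sum was 11625 to 11770 TPM in GFP and 12830 to 12924 TPM with CTNNB1, and 9726 to 11377 TPM in shNT1 and 9238 to 10207 TPM in shAPC. Most of it came from KRT8 (means of 3376 TPM in GFP and 3804 TPM with CTNNB1) and KRT18 (4704 and 5707 TPM), so it says little about the other markers. Taken singly, 3 of the 9 markers rose and 3 fell with CTNNB1, where 16.3% of all tested genes rose and 7.16% fell. With shAPC 0 of the 9 rose and 5 fell, where 7.24% of all tested genes rose and 14.9% fell. The sum over 8 mesenchymal markers was 0.65 to 0.79 TPM in GFP, 1.28 to 1.78 TPM with CTNNB1, 1.01 to 2.23 TPM in shNT1 and 1.81 to 2.02 TPM in shAPC. Most of it came from COL1A1 and VIM, with VIM means of 0.29, 1.08, 0.919 and 1.17 TPM in these groups in turn. The sum over 6 immune and endothelial markers lay between 2.18 and 3.57 TPM, with CD3E listed at 0. Most of that sum came from CD14, with means of 2.28 TPM in GFP, 2.44 TPM with CTNNB1, 2.56 TPM in shNT1 and 2.53 TPM in shAPC. The part of these markers in the results was not tested. In bulk RNA, fewer cells with a transcript and less transcript per cell cannot be told apart.

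The 8 factors covered more than 3 orders of magnitude in level, and the order was nearly the same in every group. KLF5 was the most abundant, between 236 and 357 TPM, above 96.3% or more of the genes detected in each library. ELF3 followed between 65.6 and 83.8 TPM. GATA6 (25.8 to 33.5 TPM), HNF4A (23.6 to 30.8 TPM) and HNF4G (22.6 to 28.5 TPM) lay close together, and KLF4 was lower, between 5.58 and 13.3 TPM. CDX2 never exceeded 0.875 TPM and CDX1 never exceeded 0.402 TPM. KLF5, ELF3, HNF4G, KLF4, CDX2 and CDX1 kept the same sequence in all 4 groups, whereas GATA6 and HNF4A changed places in shAPC. HNF4A and HNF4G overlapped in GFP, in CTNNB1 and in shNT1, and GATA6 and HNF4A overlapped in shNT1 and in shAPC, so these neighbours were not separated beyond their spread there.

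**Figure D1:**
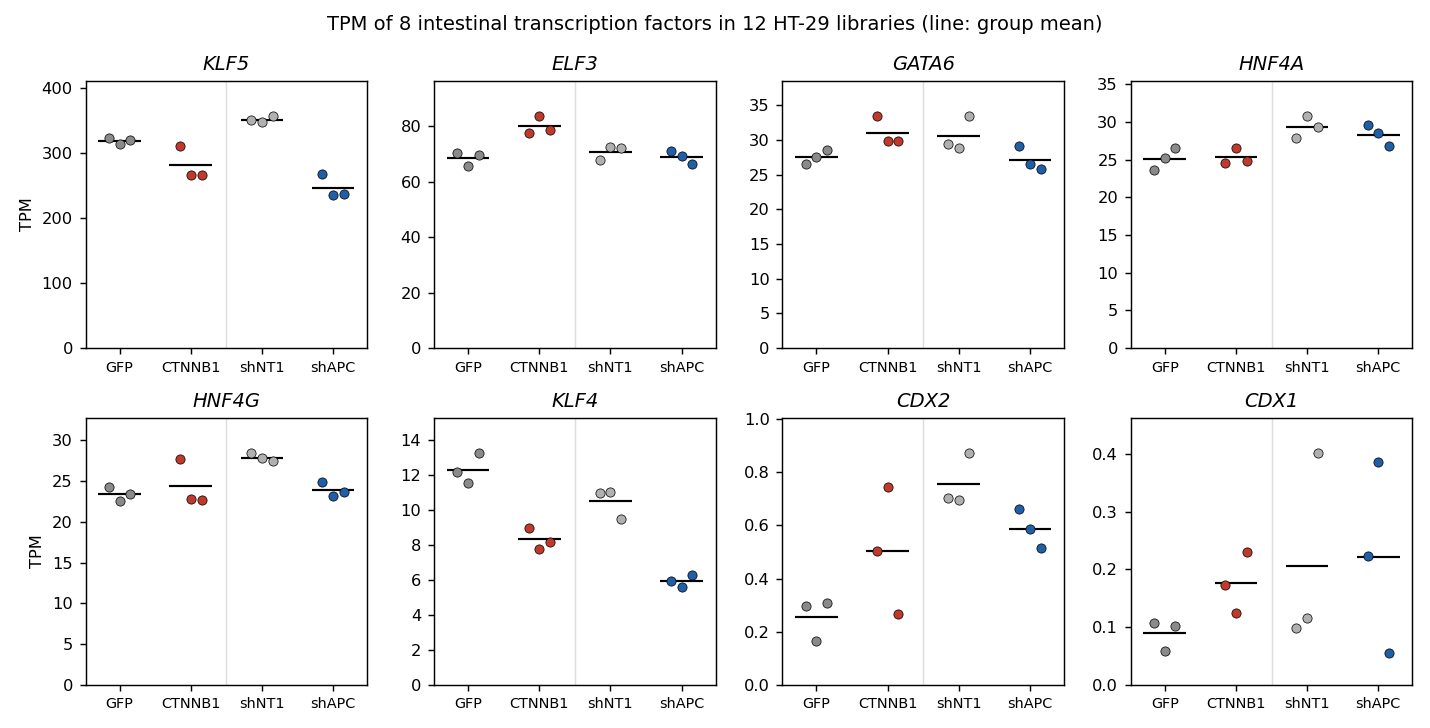
Each panel plots the TPM (vertical axis, from 0) of 1 factor in the 3 libraries of each of the 4 groups (points), with the group mean as a line. KLF4 lies lower in both perturbed groups than in their controls, HNF4A overlaps within each arm, and both CDX genes stay under 1 TPM.

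KLF4 was lower under both perturbations. KLF4 (ENSG00000136826) measured 12.2, 11.5 and 13.3 TPM in GFP libraries 1 to 3 and 9.01, 7.79 and 8.2 TPM in the CTNNB1 libraries. Every CTNNB1 library lay below every GFP library, and the mean fell from 12.3 ± 0.9 to 8.33 ± 0.62 TPM (SD, n = 3 each). The log2 fold change on the log2(TPM + 1) scale was -0.52 (SE 0.08, 95% interval -0.69 to -0.34, limma adjusted p = 0.0016). KLF4 measured 11, 11 and 9.52 TPM in shNT1 and 5.97, 5.58 and 6.28 TPM in shAPC. These groups were also apart, and the mean fell from 10.5 ± 0.87 to 5.94 ± 0.35 TPM (SD, n = 3 each), a log2 fold change of -0.73 (SE 0.08, 95% interval -0.92 to -0.54, limma adjusted p = 0.00027). KLF4 kept its call in each arm under all 12 alternatives. The authors' deposited table gives KLF4 log2 fold changes of -0.65 (adjusted p = 0.0031) and -0.79 (adjusted p = 0.01).

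KLF5 fell with shAPC, and with CTNNB1 it lay lower without a call. KLF5 (ENSG00000102554) measured 350, 347 and 357 TPM in shNT1 and 268, 236 and 236 TPM in shAPC. The groups did not overlap, and the log2 fold change was -0.51 (SE 0.06, 95% interval -0.64 to -0.38, limma adjusted p = 0.00026), from a mean of 351 ± 5.1 to 246 ± 18 TPM (SD, n = 3 each). In the other arm KLF5 measured 322, 314 and 319 TPM (GFP) and 310, 266 and 267 TPM (CTNNB1). All 3 CTNNB1 libraries lay below GFP, but library 1 lay close to it, and the log2 fold change of -0.19 (SE 0.06, 95% interval -0.32 to -0.05) missed the threshold (limma adjusted p = 0.053). Without CTNNB1 library 1 it was -0.26 (limma adjusted p = 0.00054), and median-ratio scaling, which equalises the typical gene between libraries, gave -0.26 (limma adjusted p = 0.0072). KLF5 was called in this arm under 5 of 12 alternatives. Those without a call included leaving out CTNNB1 library 2 (-0.15, limma adjusted p = 0.17) or GFP library 1 (-0.18, 0.15) and using no filter (-0.19, 0.12). The authors' deposited table gives -0.26 for KLF5 in this arm with an adjusted p of 0.017, and -0.47 with an adjusted p of 0.0019 for shAPC.

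KLF5 and KLF4 have opposed textbook roles, and their transcripts were compared within each library, where scaling cancels. The KLF5 to KLF4 ratio of TPM was 26.5, 27.2 and 24 (GFP) and 34.4, 34.1 and 32.5 (CTNNB1). It was 31.7, 31.4 and 37.4 in shNT1 and 44.8, 42.3 and 37.6 in shAPC. The ratio was higher in every perturbed library than in the controls of its arm, though shAPC library 3 exceeded shNT1 library 3 by little. The exact two-sided permutation test gave p = 0.1 in each arm, which is the smallest p that 3 against 3 libraries allow.

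Among the 17 KLF genes in the table, KLF5 supplied most of the family's TPM. Its share was 59% ± 0.59 in GFP and 53.4% ± 1.1 in CTNNB1, and 56.1% ± 0.18 in shNT1 and 53.3% ± 0.4 in shAPC (SD, n = 3 each). KLF4 made up between 1.29% (shAPC) and 2.28% (GFP) of the family on average. The wider list held 26 paralogs of the CDX, KLF, GATA and ELF families. In the CTNNB1 arm 5 of its 14 tested genes rose and 0 fell, with a median log2 fold change of 0.19 against 0.06 over all genes. In the shAPC arm 1 of 15 rose and 6 fell, with a median of -0.14 against -0.04 over all genes. Of all tested genes 16.3% rose and 7.16% fell with CTNNB1, and 7.24% rose and 14.9% fell with shAPC. KLF6, a widely expressed KLF, fell with shAPC from 75.9 ± 1.1 to 43.7 ± 2.5 TPM (SD, n = 3 each), by 0.79 on the log2 scale (limma adjusted p = 1.7e-05). It measured 47.6 ± 1.2 TPM in GFP and 50.9 ± 6.1 TPM with CTNNB1 (limma adjusted p = 0.46). KLF15 fell with shAPC from 4.31 to 2.58 TPM (log2 fold change -0.57, limma adjusted p = 0.0038). KLF11, a repressor of the TGF-beta-inducible group, was the only listed paralog called in both arms, from 9.54 to 13.2 TPM with CTNNB1 (log2 fold change 0.43, limma adjusted p = 0.001) and from 10.3 to 12.3 TPM with shAPC (0.23, limma adjusted p = 0.047). Its call with shAPC was lost in each of the 6 fits that left out a library, where the adjusted p lay between 0.059 and 0.13, and with no filter (adjusted p = 0.091).

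**Figure D2:**
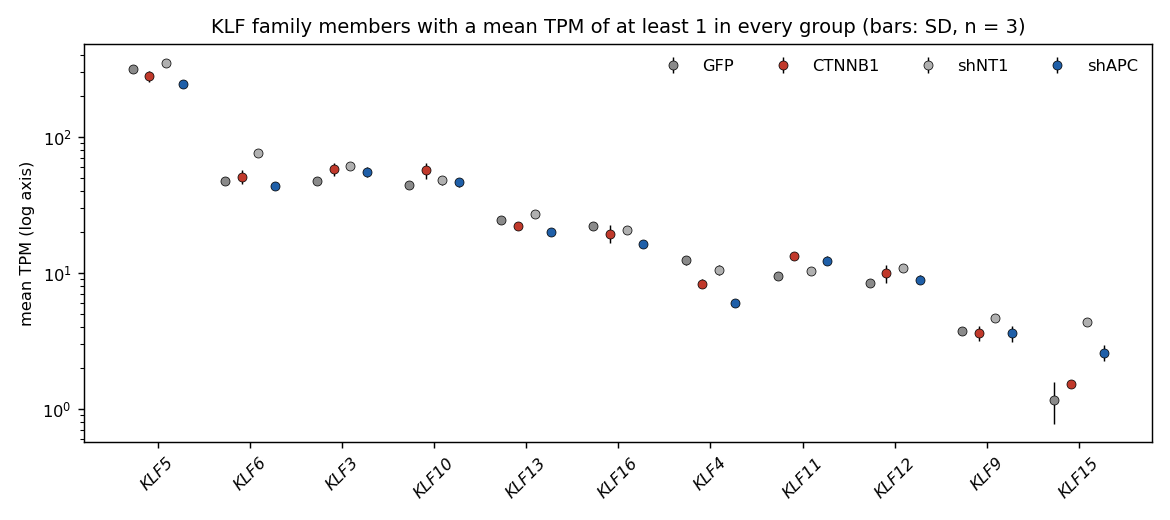
The mean TPM (log axis) of the 11 KLF genes with a mean of at least 1 in every group is plotted per group, with SD bars over 3 libraries. KLF5 lies above all others, at 246 to 351 TPM, and KLF4 and KLF6 show their lowest means in shAPC.

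ELF3 rose with CTNNB1. ELF3 (ENSG00000163435) measured 70.3, 65.6 and 69.7 TPM (GFP) and 77.5, 83.8 and 78.7 TPM (CTNNB1). The groups were apart, with means of 68.5 ± 2.6 and 80 ± 3.3 TPM (SD, n = 3 each) and a log2 fold change of 0.22 (SE 0.05, 95% interval 0.10 to 0.34, limma adjusted p = 0.015). The call was lost under median-ratio scaling (0.15, adjusted p = 0.081), without GFP library 2 (0.19, adjusted p = 0.087) and without CTNNB1 library 2 (0.19, adjusted p = 0.067). The authors' deposited table gives ELF3 0.15 (adjusted p = 0.16) with CTNNB1 and -0.002 (adjusted p = 0.96) with shAPC. In the other arm ELF3 measured 68, 72.4 and 72.3 TPM in shNT1 and 71.2, 69.1 and 66.3 TPM in shAPC, and the groups overlapped. The log2 fold change was -0.04 (95% interval -0.16 to 0.08, limma adjusted p = 0.62). EHF, the closest ETS relative of ELF3 in epithelia, was more abundant and rose with CTNNB1 from 232 ± 5.8 to 290 ± 31 TPM (SD, n = 3 each), a log2 fold change of 0.32 (limma adjusted p = 0.0094). With shAPC it went from 245 ± 12 to 266 ± 15 TPM (limma adjusted p = 0.19).

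GATA6 was not called in either arm, with a mean above the control under CTNNB1 and below it under shAPC. GATA6 (ENSG00000141448) measured 26.5, 27.5 and 28.5 TPM in GFP and 33.5, 29.8 and 29.9 TPM with CTNNB1. All CTNNB1 libraries lay above GFP, library 1 most, with a log2 fold change of 0.17 (SE 0.06, 95% interval 0.03 to 0.31, limma adjusted p = 0.085). GATA6 measured 29.4, 28.8 and 33.4 TPM in shNT1 and 29.2, 26.6 and 25.8 TPM in shAPC. These groups overlapped, with shNT1 library 3 the highest, and the log2 fold change was -0.16 (SE 0.07, 95% interval -0.32 to 0.00, limma adjusted p = 0.15). The authors' deposited table gives GATA6 0.10 (adjusted p = 0.21) with CTNNB1 and -0.12 (adjusted p = 0.22) with shAPC. GATA6 made up 73.5% of GATA family TPM in GFP, 66% with CTNNB1, 60.5% in shNT1 and 59.3% in shAPC. The rest was mostly GATA2, a haematopoietic and endothelial GATA factor, which rose with CTNNB1 from 9.3 ± 0.66 to 14.7 ± 0.79 TPM (SD, n = 3 each; log2 fold change 0.61, limma adjusted p = 4e-04). In the shAPC arm GATA2 measured 18.8 ± 1.2 and 17.3 ± 0.5 TPM (SD, n = 3 each; limma adjusted p = 0.25). GATA4, the GATA factor of the proximal intestine, was listed at 0 in all 12 libraries.

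HNF4A gave no call in either arm. HNF4A (ENSG00000101076) measured 23.6, 25.2 and 26.5 TPM in GFP, 24.6, 26.5 and 24.8 TPM with CTNNB1, 27.8, 30.8 and 29.3 TPM in shNT1 and 29.6, 28.5 and 26.9 TPM in shAPC. Each perturbed group overlapped its control. The log2 fold changes were 0.01 (95% interval -0.13 to 0.15, limma adjusted p = 0.91) and -0.05 (95% interval -0.19 to 0.09, limma adjusted p = 0.63). These intervals bound the change of HNF4A but do not show that it was absent. Under median-ratio scaling the CTNNB1 value was -0.060, also not called. The authors' deposited table gives HNF4A -0.06 (adjusted p = 0.64) and -0.01 (adjusted p = 0.90).

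HNF4G fell slightly with shAPC. HNF4G (ENSG00000164749) measured 28.5, 27.8 and 27.4 TPM in shNT1 and 24.9, 23.1 and 23.7 TPM in shAPC. The groups did not overlap, and the log2 fold change was -0.22 (SE 0.06, 95% interval -0.34 to -0.09, limma adjusted p = 0.025). In the authors' deposited table HNF4G was at -0.18 with an adjusted p of 0.039 here, and at -0.02 with an adjusted p of 0.80 for CTNNB1. The call was lost without shNT1 library 1 (adjusted p = 0.094), shNT1 library 2 (0.068), shAPC library 2 (0.087) or shAPC library 3 (0.074). HNF4G measured 24.3, 22.6 and 23.4 TPM in GFP and 27.8, 22.8 and 22.6 TPM with CTNNB1, where library 1 lay above all others and the groups overlapped (log2 fold change 0.05, 95% interval -0.13 to 0.23, limma adjusted p = 0.68). The HNF4A to HNF4G ratio was 1.05 ± 0.068 in shNT1 and 1.19 ± 0.05 in shAPC (SD, n = 3 each, exact two-sided permutation p = 0.1, the smallest possible). In the other arm it was 1.07 ± 0.088 in GFP and 1.05 ± 0.15 with CTNNB1, and the groups overlapped (SD, n = 3 each, exact two-sided permutation p = 0.8).

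CDX2 and CDX1 were below the mean of 1 TPM that was required for the test and were not tested. CDX2 (ENSG00000165556) measured 0.299, 0.163 and 0.308 TPM in GFP and 0.505, 0.744 and 0.266 TPM with CTNNB1. It measured 0.702, 0.697 and 0.875 TPM in shNT1 and 0.661, 0.586 and 0.515 TPM in shAPC. The CTNNB1 libraries overlapped GFP, and the shAPC libraries lay below shNT1. CDX1 (ENSG00000113722) lay between 0.059 and 0.108 TPM in GFP, between 0.124 and 0.23 TPM with CTNNB1, between 0.098 and 0.402 TPM in shNT1 and between 0.0557 and 0.386 TPM in shAPC. The CTNNB1 libraries lay above GFP for CDX1, and the hairpin groups overlapped. CDX2 ranked at the 12.9 to 25.5 percentile and CDX1 at the 6.21 to 19.1 percentile of the genes above 0 per library. With no filter on low values, limma called neither gene in either arm. The authors' deposited table gives CDX2 0.85 (adjusted p = 0.39) and -0.31 (adjusted p = 0.22), and CDX1 0.66 (adjusted p = 0.30) and 0.11 (adjusted p = 0.92), for CTNNB1 and shAPC in turn. The third family member, CDX4, was listed at 0 throughout.

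The calls were counted against all genes. The factors were chosen with earlier results of these data known, so the counts are a description. In the CTNNB1 arm 2 of the 6 tested factors were called, 1 higher (ELF3) and 1 lower (KLF4), where 23.5% of 11624 tested genes were called, 16.3% higher and 7.16% lower. The groups did not overlap for 4 of the 6, 2 above and 2 below, against 43.2% of all tested genes, 30.2% above and 13% below. In the shAPC arm 3 of 6 were called, all lower (KLF4, KLF5 and HNF4G), where 22.1% of 11834 tested genes were called, 7.24% higher and 14.9% lower. The groups did not overlap for 3 of the 6, all below, against 40.9% of all tested genes, 14.5% above and 26.4% below. The 6 tested factors were above 5 TPM in every library, so none passed the filter through 1 group alone. Their log2 fold changes had a median of 0.03 with CTNNB1 and -0.19 with shAPC, against 0.06 and -0.04 over all tested genes.

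Whether the effects differed between the arms was tested by subtracting the effect of shAPC from that of CTNNB1, fitting all 12 libraries at once. Of the 6 tested factors 3 were called, each with a positive difference, where 16.1% of 11741 genes were called, 13.3% with a positive and 2.76% with a negative difference. For GATA6 the difference was 0.33 (SE 0.10, limma adjusted p = 0.038), 0.32 for KLF5 (SE 0.09, limma adjusted p = 0.025) and 0.26 for ELF3 (SE 0.07, limma adjusted p = 0.027). HNF4G (0.27, 95% interval 0.05 to 0.48, limma adjusted p = 0.086), KLF4 (0.21, 95% interval -0.03 to 0.46, limma adjusted p = 0.21) and HNF4A (0.06, 95% interval -0.13 to 0.25, limma adjusted p = 0.68) were not called. The median difference of all genes was itself 0.11. Under median-ratio scaling, where that median was 0.00, the differences of GATA6, KLF5 and ELF3 were 0.22, 0.21 and 0.15 and none was called (limma adjusted p = 0.07, 0.06 and 0.16). Leaving out GFP library 2, shAPC library 2 or shAPC library 3 also left no factor called, and leaving out shNT1 library 3 left 1. The arms also differ in vector, collection day and doxycycline, which cannot be told apart from the perturbation in this difference.

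**Figure D3:**
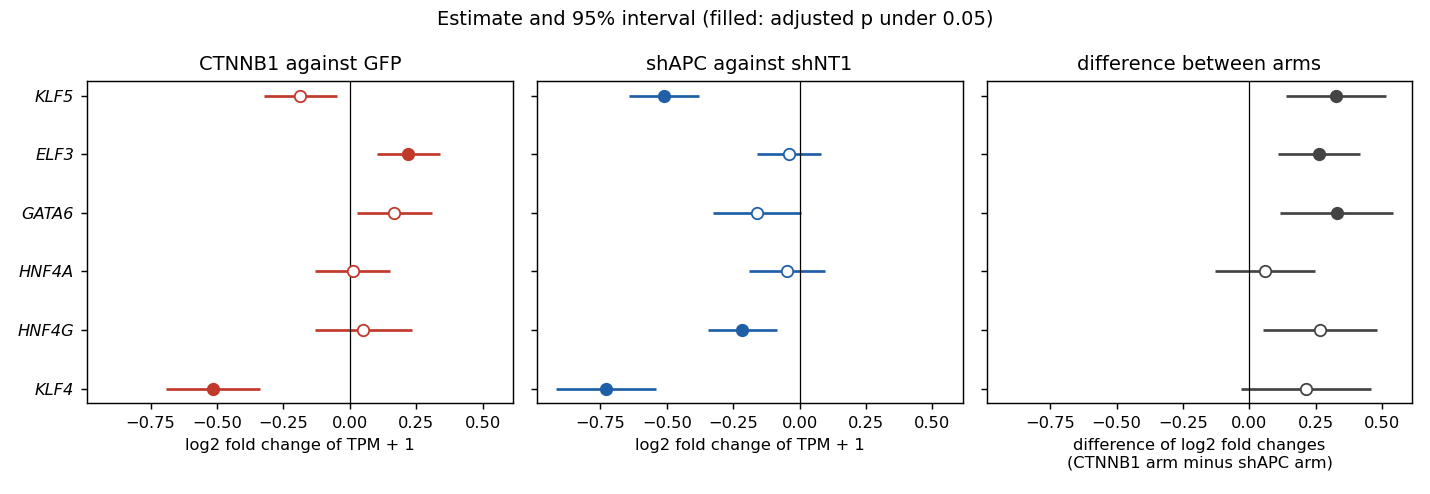
Log2 fold changes (horizontal axis) of the 6 tested factors are plotted with 95% intervals for each arm and for the difference between the arms, and filled points passed the adjusted p of 0.05. KLF4 is to the left of 0 in both arms, KLF5 lies at -0.19 and -0.51, and the estimated differences are all to the right of 0 for TPM as deposited (that of HNF4A is -0.050 under median-ratio scaling).

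Target genes of the factors were followed with lists of textbook targets. The lists were chosen with earlier results of these data known, so they are not independent of the data. Of 13 genes known as CDX targets only 5 reached the filter, and LCT, CA1, SLC26A3, GUCY2C, SI and MEP1A all averaged under 0.05 TPM in every group. In the CTNNB1 arm 3 of the 5 fell and 1 rose, with a median of -0.52 against 0.06 over all genes. In that arm 7.16% of all tested genes fell and 16.3% rose. In the shAPC arm LGALS4, HEPH and CDHR5 fell and CLDN2 rose, where 14.9% of all tested genes fell and 7.24% rose. The shAPC median of -0.52 (-0.04 over all genes) is the value of CDHR5 itself, so the count and median there are a description. LGALS4, a lectin of the intestinal epithelium that is also among the epithelial markers above, fell from 748 to 522 TPM with CTNNB1 (log2 fold change -0.52, limma adjusted p = 9.2e-05) and from 951 to 623 TPM with shAPC (-0.61, limma adjusted p = 0.00016). HEPH, a ferroxidase of enterocytes, fell from 8.01 to 4.13 TPM and from 10.5 to 4.49 TPM (log2 fold changes -0.81 and -1.07). CDHR5, a brush border cadherin, fell from 2.47 to 1.08 TPM and from 1.83 to 0.968 TPM, and in the shAPC arm it passed the filter through shNT1, the group where it is higher. CLDN2, a pore-forming claudin, went the other way, from 128 to 182 TPM (0.51, limma adjusted p = 0.00025) and from 140 to 217 TPM (0.63, limma adjusted p = 6.5e-05).

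Of 12 genes known as HNF4 targets 3 were tested, and the apolipoprotein genes APOA4, APOB and APOC3 and the fatty acid carrier FABP2 were listed at 0 in all libraries. In the CTNNB1 arm 0 rose and 1 fell, where 16.3% of all tested genes rose and 7.16% fell. In the shAPC arm 0 rose and 2 fell, where 7.24% of all tested genes rose and 14.9% fell. The medians were 0.00 and -0.31, against 0.06 and -0.04 over all genes. DPP4, a brush border peptidase, fell from 38.1 to 32.9 TPM with CTNNB1 (log2 fold change -0.21, limma adjusted p = 0.023) and from 41.8 to 33.5 TPM with shAPC (-0.31, limma adjusted p = 0.0038). Its call in the CTNNB1 arm was lost without CTNNB1 library 3 (adjusted p = 0.055) or any of GFP libraries 1, 2 and 3 (adjusted p = 0.06, 0.1 and 0.08). SERPINA1, the alpha-1 antitrypsin gene, fell with shAPC from 109 to 80.3 TPM (-0.43, limma adjusted p = 0.00041) and measured 69.2 and 72.8 TPM in GFP and CTNNB1 (limma adjusted p = 0.39).

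Of 6 cell cycle and enterocyte genes tied to KLF4 or KLF5, 5 were tested. In each arm 1 rose and 0 fell, where 16.3% (CTNNB1) and 7.24% (shAPC) of all tested genes rose and 7.16% and 14.9% fell. The medians were 0.07 and -0.03, against 0.06 and -0.04 over all genes. The gene that rose was CCND1, the cyclin D1 gene, which is also a WNT target. It rose from 115 to 170 TPM with CTNNB1 (log2 fold change 0.57, limma adjusted p = 5.8e-05) and from 129 to 151 TPM with shAPC (0.22, limma adjusted p = 0.01), the latter not called without shNT1 library 1 (adjusted p = 0.051). ALPI, the enterocyte alkaline phosphatase gene, was listed at 0 throughout.

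Of 17 further gut epithelial factors listed, 10 were tested. In the CTNNB1 arm 2 rose and 1 fell, where 16.3% of all tested genes rose and 7.16% fell. In the shAPC arm 0 rose and 3 fell, where 7.24% of all tested genes rose and 14.9% fell. The medians were 0.09 and -0.13, against 0.06 and -0.04 over all genes. FOXA3, a forkhead factor of endoderm, rose from 7.14 to 10.6 TPM with CTNNB1 (log2 fold change 0.51, limma adjusted p = 0.00056). ONECUT2, a cut-homeobox factor of endoderm, fell from 23.6 to 13.9 TPM with shAPC (-0.72, limma adjusted p = 0.00021), and PPARG, a nuclear receptor of colonocytes, fell from 38.4 to 30.5 TPM (-0.32, limma adjusted p = 0.0035). GATA4, MAF and CREB3L3 were listed at 0.

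**Figure D4:**
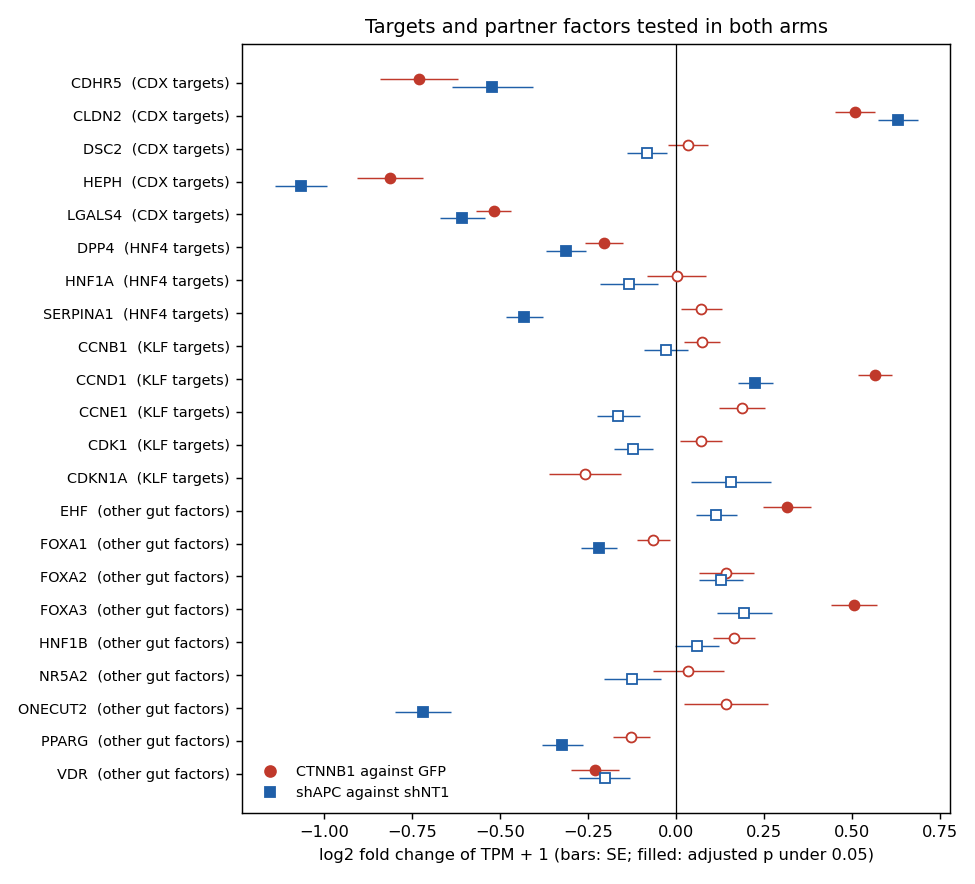
Log2 fold changes with SE bars are plotted for the 22 target and partner genes tested in both arms (circles for CTNNB1 against GFP, squares for shAPC against shNT1, filled where the adjusted p was under 0.05). LGALS4, HEPH and CDHR5 lie at -0.52 or below in both arms, and CLDN2 lies at 0.51 and 0.63. CDHR5 passed the filter in the shAPC arm only through shNT1.

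The genes whose level followed each tested factor most closely over the 12 libraries were listed among 9438 genes with a mean of at least 5 TPM. The Pearson correlations of log2(TPM + 1) are descriptions over 12 libraries that share cell line, arms and perturbations. KLF5 was followed most closely by RAB27B (r = 0.987) and RHOBTB1 (0.986), and KLF4 by CD55 (0.974) and XPOT (0.972). HNF4G was followed by RUFY3 (0.971) and THOC2 (0.957), and GATA6 by CDK5RAP2 (0.964) and BAZ1B (0.963). ELF3 was followed by PDGFB (0.962) and GNB1 (0.933), and HNF4A by TJP3 (0.950) and FHL3 (0.923). Among the factors themselves, KLF4 and KLF5 had the highest correlation, with r = 0.841, and HNF4A and KLF4 the lowest, with r = -0.293.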

How the data were processed

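RNA-seq values of 12 libraries in 4 groups of 3 were analysed. The authors deposited a table of TPM with a row per gene symbol, and each column sums to 1e+06. STAR 2.7.3a, limma and hg38 are named in the submitters' processing notes, while the quantification tool, annotation and strandedness are not given in the sources used here. The authors also deposited a limma table per arm with log2 fold changes, mean log2 expression, p-values and adjusted p-values, per the file headers, and 2 score columns (t and B) that were not used. TPM keeps no depth, so no counting interval or floor was derived.

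In R 4.3.3, limma 3.58.1 was run per arm with log2(TPM + 1) as input and a mean-variance trend, keeping genes whose TPM averaged 1 or more over the 6 libraries; all 12 libraries gave the difference between the arms. A gene was called at a Benjamini-Hochberg adjusted p under 0.05 over all genes tested. The pseudocount understates changes of low genes. The members and lists were chosen with earlier results of these data known. From each list, genes called in both arms and the 2 with the largest called change per arm were named, plus markers at 0. Genes named as near 0 (LCT, SLC26A3, GUCY2C, SI, MEP1A, SOX2, CLDN18, MUC6) were chosen after their values were seen. So were TFF2, CD14, VIM and COL1A1. For likeness, the 2 genes with the highest r per factor were named. Other settings tried were median-ratio scaling, a replicate block, 1 fit of all 4 groups, leaving out each library, a filter at 5 TPM or none, and 0.1 as pseudocount.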

Additional observations from a re-analysis of the deposited data

Results flagged for a closer look

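Each gene here was picked out because limma called the difference between its effects in both arms (CTNNB1 arm minus shAPC arm, log2). Among the 8 identity factors these were GATA6 (0.33), KLF5 (0.32) and ELF3 (0.26), and none of the 3 was called under median-ratio scaling. Among the listed targets, partners and markers named by the rule for named genes, the positive differences were those of KLF6 (0.87), ONECUT2 (0.86), KLF15 (0.81), GATA2 (0.73), KRT20 (0.6), VIL1 (0.52), SERPINA1 (0.5), CCND1 (0.34) and FOXA3 (0.31). Those of AXIN2 (-0.56) and ASCL2 (-0.69) were negative. FOXA3 was also not called under median-ratio scaling (0.21, limma adjusted p = 0.11), while the other 10 of these listed genes were. Outside that rule, the difference was also called for 8 listed genes: KLF12 (0.48), KLF3 (0.43), ELF4 (0.40), KLF10 (0.39), CCNE1 (0.35), CDH1 (0.32), KLF13 (0.31) and RNF43 (-0.33). Their values under the other settings were not tabulated. The part of vector, collection day and doxycycline in these differences cannot be told apart from that of the perturbations.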

How the results depend on the processing

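KLF4 in both arms and KLF5 in the shAPC arm kept direction and call under all 12 alternatives of each arm. KLF5 in the CTNNB1 arm kept its direction and was called under 5 of 12. Scaling moved the balance of calls over all genes: higher calls made up 69.5% in the CTNNB1 arm, 32.8% in the shAPC arm and 82.8% for the difference, and 46.1%, 44.3% and 54.7% under median-ratio scaling. The same scaling gave HNF4A -0.060 in the CTNNB1 arm and -0.050 for the difference, HNF4G -0.021 in the CTNNB1 arm and ELF3 0.0010 in the shAPC arm, each the other way from TPM as deposited and none called. Of the 6 tested factors, the difference was called for 0 under median-ratio scaling, 1 with no filter (ELF3) and 1 with the replicate block (KLF5). The cause was not tested. Leaving out 1 library at a time gave 1499 to 3190 called genes and 1 to 3 called factors in the CTNNB1 arm, 1484 to 2252 and 2 to 3 in the shAPC arm, and 995 to 2143 and 0 to 4 for the difference. There HNF4A ranged from -0.031 to 0.049 and HNF4G from -0.042 to 0.099 in the CTNNB1 arm.

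Pairing was looked for after each gene's group mean was subtracted, so the correlations are of deviations within groups, not of whole libraries. On these deviations, same-numbered libraries correlated between 0.07 and 0.22 in the CTNNB1 arm, where 6 of 6 correlated best with their own number. In the shAPC arm the correlations lay between -0.21 and -0.01, and 0 of 6 did so. The preference of GFP library 2 was slight, with r = 0.0697 for CTNNB1 library 2 against 0.0686 for CTNNB1 library 3. The deviations of a group cancel out, so the 6 libraries of an arm are not separate observations. The criterion for pairing, a correlation over 0.1 in every pair, was met in neither arm, and the preference for the own number in the CTNNB1 arm is a hint from the data, not from the design. With the replicate block 2895, 1767 and 1145 genes were called in the CTNNB1 arm, the shAPC arm and the difference, against 2730, 2615 and 1885 without it. With it KLF5 passed for CTNNB1 (-0.19, limma adjusted p = 0.028), HNF4G was not in the shAPC arm (-0.22, limma adjusted p = 0.071), and neither was KLF11 (0.23, limma adjusted p = 0.11).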

Other observations

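Colon epithelial and gastric markers gave a view of the cells beside the factors. In the CTNNB1 arm 3 of 9 colon epithelial markers rose and 3 fell, where 16.3% of all tested genes rose and 7.16% fell. In the shAPC arm 0 rose and 5 fell, where 7.24% of all tested genes rose and 14.9% fell. KRT19, a simple-epithelium keratin, fell from 591 to 510 TPM with CTNNB1 (log2 fold change -0.21, limma adjusted p = 0.0055) and from 452 to 337 TPM with shAPC (-0.42, limma adjusted p = 0.0055). PHGR1, a small protein of differentiated gut cells, fell from 41.2 to 30 TPM and from 46 to 29.9 TPM. VIL1, which encodes the microvillus protein villin, rose with CTNNB1 from 81.5 to 113 TPM, and KRT20, the keratin of differentiated colonocytes, fell with shAPC from 106 to 69.3 TPM. Of 7 gastric markers 3 were tested. In the CTNNB1 arm 0 rose and 1 fell, and in the shAPC arm 0 rose and 2 fell, beside the same shares of all tested genes. MUC5AC, the gel-forming mucin of the stomach surface, fell in both arms, from 27 to 12.4 TPM and from 25.8 to 7.92 TPM. TFF1, its trefoil partner, fell with shAPC from 13.3 to 6.03 TPM. With CTNNB1 it went from 17.3 to 11.8 TPM without a call (limma adjusted p = 0.074). TFF2 was called in neither arm (limma adjusted p = 0.48 with CTNNB1 and 0.17 with shAPC). GKN1 was listed at 0 throughout, and group means reached at most 0.0232 TPM for CLDN18 and 0.00318 TPM for MUC6. SOX2, the factor of gastric fate that CDX2 opposes, stayed under 0.15 TPM on average in every group.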
